A study of Rattus norvegicus with 4 samples.

Results

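The 9 genes described here across the cells of a healing rat skin wound are Mrc1, Cd163, Clec10a, Gas6, Mertk, Axl, Trem2, Gpnmb and Spp1. They are known from macrophages that repair tissue or clear dying cells, and were chosen by symbol from the 23999 genes in the files. All 9 were found, each under 1 identifier. Cells came from skin of a rat wound healing model on day 4 and were profiled by droplet-based single-cell RNA sequencing, which tags each captured RNA molecule with a unique molecular identifier (UMI). The injected group (2 libraries) received purified migrasomes, vesicles left behind by migrating cells, and the uninjected group (2 libraries) received nothing. Since nothing was injected in the controls, an effect of the migrasomes and one of the injection itself cannot be told apart. The labels name no strain, sex, age or migrasome source, and do not say that the libraries came from separate animals, so the p-values rest on library-to-library spread that may be only technical.

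Efferocytosis is the uptake of dying cells. Gas6 is a secreted protein that bridges phosphatidylserine on a dying cell to the receptor tyrosine kinases Mertk and Axl. Mrc1 (the mannose receptor), Cd163 (a receptor for haemoglobin-haptoglobin complexes) and Clec10a (a lectin that binds galactose-type sugars) are surface receptors used as markers of alternatively activated or resident macrophages. Trem2 is a lipid receptor that signals through Tyrobp, Gpnmb is a transmembrane glycoprotein of lysosome-rich phagocytes, and Spp1 encodes osteopontin, a secreted ligand of integrins and Cd44. In a wound, macrophages clear spent neutrophils and then take part in repair.

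In these wounds the 9 genes did not share 1 pattern. Most Spp1 and Trem2 RNA was found in macrophage-like cells, Gpnmb was shared between neutrophil-like and macrophage-like cells, most Clec10a came from dendritic-like cells, and Axl and Gas6 came mostly from fibroblast-like and keratinocyte-like cells. None of the 9 passed edgeR's test for injection in any class with all libraries, the filter on low counts and no term for the replicate number. Clec10a in macrophage-like cells came nearest, with a mean of 62.6 ± 16.9 CPM (SD, n = 2) with injection against 7.42 ± 3.54 without. CPM are UMI counts scaled to 1000000 per class and library. These means rest on 1 and 21 UMIs in uninjected 1 and 2 and on 140 and 162 in injected 1 and 2. In injected 1 and 2, 5 cells held 62.9% and 80.9% of them.

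The 250 bases before the RefSeq start were at hand for 8 of the 9 genes (build GRCr8). Those of Gpnmb, Trem2 and Spp1 are shown because these genes differ in the classes that hold them, as described below: Gpnmb is abundant in neutrophil-like and macrophage-like cells, Trem2 and Spp1 in macrophage-like cells. Capitals mark matches, on either strand, to CACATG (an E-box), CACGTG (the palindromic E-box), TGAGTCA (a site of AP-1 factors) or GAGGAAG (a site of ETS factors such as PU.1). No match overlapped another.
Gpnmb, chr4:79340878-79341127, + strand: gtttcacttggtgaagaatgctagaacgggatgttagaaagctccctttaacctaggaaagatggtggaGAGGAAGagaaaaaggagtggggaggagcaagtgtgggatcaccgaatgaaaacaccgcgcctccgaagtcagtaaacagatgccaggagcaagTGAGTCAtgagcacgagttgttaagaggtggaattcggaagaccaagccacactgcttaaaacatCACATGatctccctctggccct
Trem2, chr9:20151780-20152029, - strand: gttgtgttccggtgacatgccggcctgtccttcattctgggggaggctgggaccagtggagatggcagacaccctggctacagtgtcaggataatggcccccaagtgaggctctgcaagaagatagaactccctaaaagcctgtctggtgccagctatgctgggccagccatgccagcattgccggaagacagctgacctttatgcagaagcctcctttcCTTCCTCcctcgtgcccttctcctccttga
Spp1, chr14:5619805-5620054, - strand: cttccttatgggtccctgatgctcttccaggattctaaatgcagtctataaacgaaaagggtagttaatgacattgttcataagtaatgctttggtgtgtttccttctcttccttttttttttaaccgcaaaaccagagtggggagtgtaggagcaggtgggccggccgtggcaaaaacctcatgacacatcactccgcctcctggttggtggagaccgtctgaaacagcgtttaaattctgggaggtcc

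The Gpnmb window held CACATG beginning 22 bases, TGAGTCA 87 bases and GAGGAAG 181 bases before the start. The Trem2 window held the reverse complement of GAGGAAG 30 bases before the start. The Spp1 window held none of these letters, which says nothing of the factors. Among 33360 such windows, 12.1% held CACATG, 5.61% held CACGTG, 4.05% held TGAGTCA and 10.3% held GAGGAAG. Of the 8 genes, 2 held CACATG (Gpnmb and Mrc1), 0 held CACGTG, 1 held TGAGTCA and 4 held GAGGAAG (Axl, Gpnmb, Mrc1 and Trem2). These are matches of letters, not mapped sites.

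The total per library was 75823418 to 105605297 UMIs. Filtering left 6073 to 9850 cells per library, and their 25 clusters all took a class name from marker genes. The 9 genes were left out of the clustering and of the markers. Macrophage-like cells formed 1 cluster of 1527 cells, of which uninjected 1 and 2 gave 59 and 409 and injected 1 and 2 gave 680 and 379. All 11 macrophage markers were detected in each library, with a summed level of 10695 to 15936 UPM (the UMIs of a gene in each 1000000 UMIs of the class and library), against 559 to 1144 for the dendritic markers, 346 to 1035 for the neutrophil markers and 511 to 1637 for the keratinocyte markers. By library, 8 to 11 of the 13 dendritic markers and 8 to 10 of the 12 neutrophil markers were detected in these cells. Ccr7 of the former and Fpr1 of the latter were at 0. Uninjected 1 stood apart, with the fewest macrophage-like cells and with 17.1% of UMIs from ribosomal protein genes against 7.16% to 8.61% in the other 3 libraries. Pairs of libraries shared 14 to 29 cell barcodes.

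**Figure D1:**
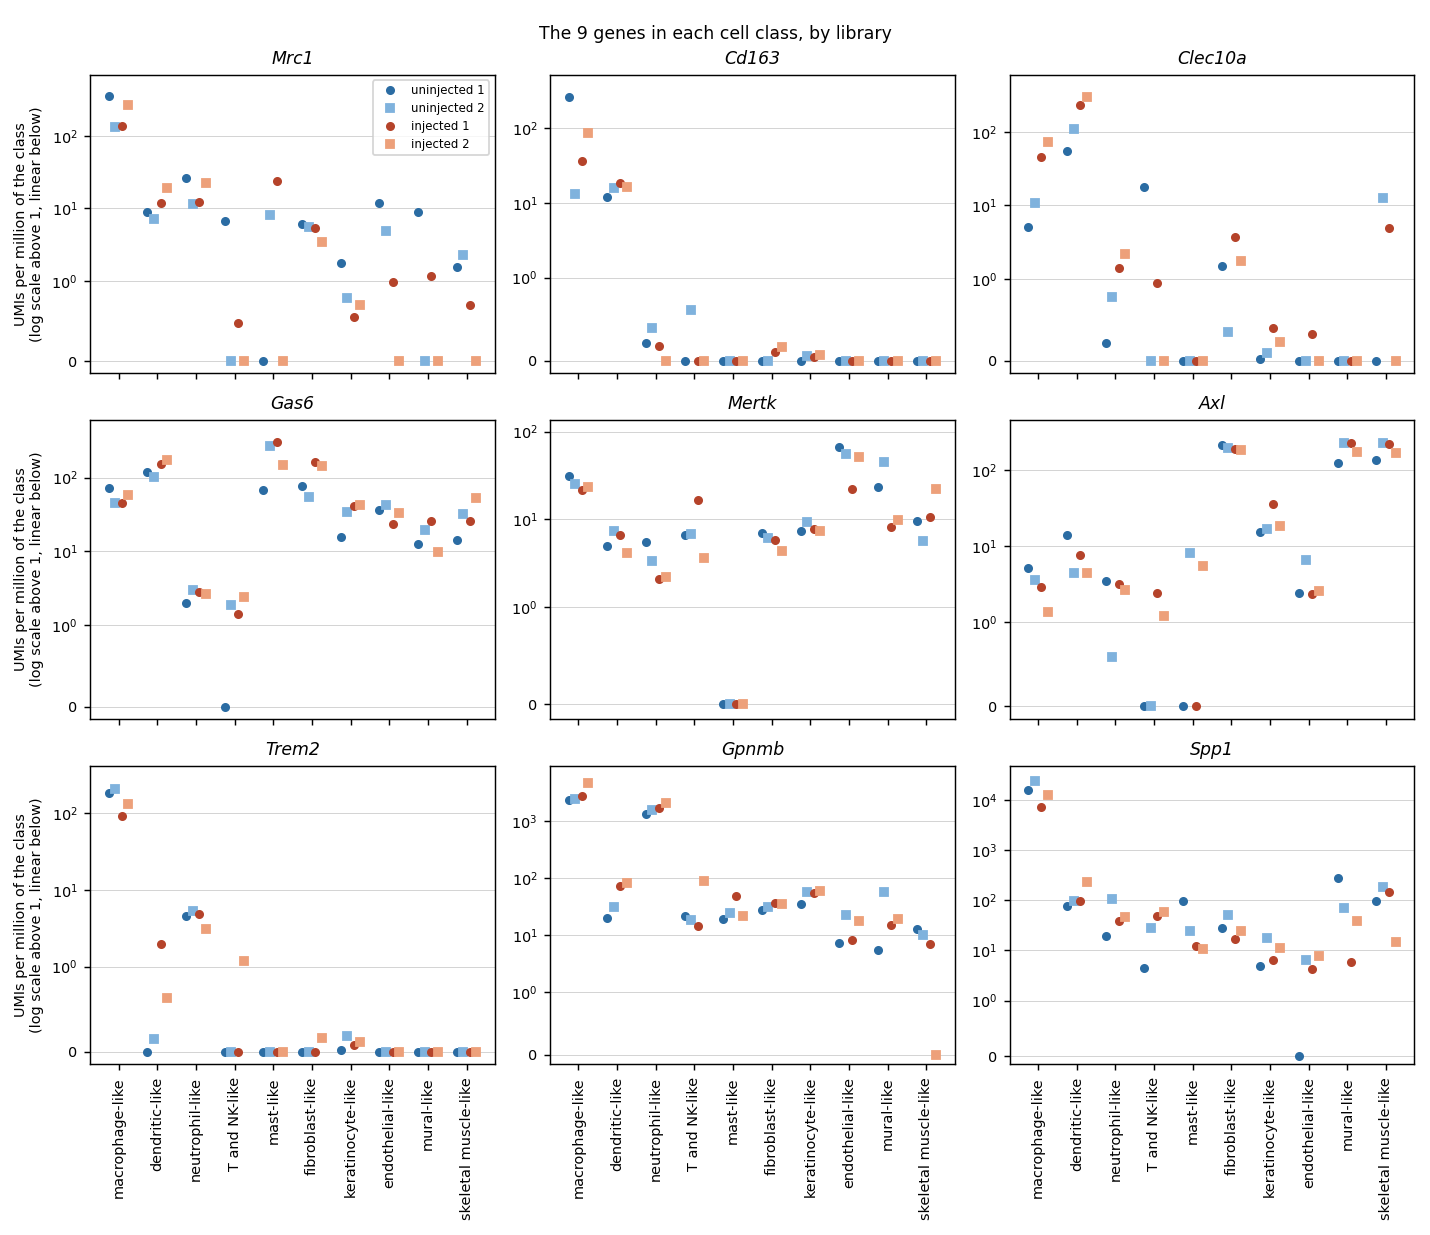
Level of each gene in UPM (vertical axis, logarithmic above 1 and linear below) in the 10 cell classes (horizontal axis), with 1 point per library. Spp1 and Trem2 stand highest in macrophage-like cells, Clec10a in dendritic-like cells and Axl in fibroblast-like, mural-like and skeletal muscle-like cells, while the Gpnmb points of neutrophil-like cells lie close under those of macrophage-like cells.

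Osteopontin RNA lay mostly in 1 class. Of all Spp1 UMIs in kept cells, 93.3% lay in macrophage-like cells, the 1527 cells of cluster 9, with 79.2% in uninjected 1 and 93.4% to 94.4% in the other 3 libraries. There Spp1 gave 16003 and 24639 UPM in uninjected 1 and 2 and 7256 and 12737 in injected 1 and 2. Every other class held under 300.2 UPM in each library, from 76.0 to 234 in dendritic-like cells and from 4.88 to 17.9 in keratinocyte-like cells. Free RNA, judged from the empty droplets, could account for up to 98.2% of the Spp1 UMIs in keratinocyte-like cells and 66.1% in neutrophil-like cells but 0.12% in macrophage-like cells. Macrophage-like cells also held 89.8% of the Trem2 UMIs (62.1% in uninjected 1 and 87.7% to 94.6% in the others), at 185 and 209 UPM without injection and 91.5 and 133 with it. Neutrophil-like cells held 3.10 to 5.30 UPM of Trem2, and fibroblast-like cells 2 UMIs in all.

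Gpnmb, the glycoprotein of phagocyte lysosomes, was divided between 2 classes, with 43.6% of its UMIs in neutrophil-like cells and 37.6% in macrophage-like cells over all libraries. The division varied by library, with 72.0%, 48.3%, 44.9% and 25.0% in neutrophil-like and 5.41%, 28.8%, 40.1% and 57.2% in macrophage-like cells of uninjected 1, uninjected 2, injected 1 and injected 2. Neutrophil-like cells thus held the larger part in 3 libraries and macrophage-like cells in injected 2. Macrophage-like cells held 2368 and 2443 UPM in uninjected 1 and 2, and 2830 and 4755 in injected 1 and 2. Neutrophil-like cells held 1333 and 1580 without injection and 1725 and 2065 with it, below the macrophage-like value of the same library in each of the 4 libraries. Free RNA could account for at most 0.82% of the neutrophil-like Gpnmb UMIs. Of the 11 macrophage markers 10 were detected in neutrophil-like cells of uninjected 1 and 11 in those of the others, summing to 3528 and 7932 UPM without injection and 6950 and 4177 with it, against 19342 to 36281 for the 12 neutrophil markers. Most of that sum was Lyz2 (1876 to 5733 UPM) and Ctsb (1320 to 1868), with C1qa at 0.218 to 4.36, Csf1r at 1.74 to 4.79 and Ms4a7 at 0 in uninjected 1. Their part in the Gpnmb result was not tested. When each cell was thinned to 1000 UMIs, 52.6%, 60.2%, 60.8% and 58.9% of neutrophil-like cells in uninjected 1, uninjected 2, injected 1 and injected 2 had a Gpnmb UMI, against 72.2%, 62.7%, 67.8% and 79.8% of macrophage-like cells. The same shares in T and NK-like cells were 0.499% to 1.89%. Thinning left out 1869, 391, 784 and 260 neutrophil-like cells of these libraries, and before it the neutrophil-like shares were 54.6% to 68.8%. The median depth was 1041 to 1429 UMIs in neutrophil-like cells, 3251 to 5633 in macrophage-like cells and 2789 to 4339 in T and NK-like cells.

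The 4 neutrophil-like clusters did not hold Gpnmb alike. Cluster 10, of 1255 cells, held 4567 and 5748 UPM in uninjected 1 and 2 and 4615 and 5336 in injected 1 and 2. Cluster 3 held 1629 to 2164, cluster 1 held 894 to 1216 and cluster 2 held 883 to 1211. Cluster 10 therefore exceeded the other 3 clusters in every library. It also lay above the macrophage-like value of the same library each time, though the 2 ranges over all libraries overlapped. In clusters 2 and 3 both injected libraries lay below both uninjected ones, and in clusters 1 and 10 the groups overlapped. Cluster 10 made up 240 of 4261 and 274 of 3489 neutrophil-like cells without injection and 388 of 4118 and 353 of 1605 with it. The part of these cluster sizes in the class values was not tested. The name of cluster 10 rested on 4 neutrophil markers, against 6, 5 and 5 in clusters 1, 2 and 3. Among its leading 10 genes 1 was a neutrophil marker, as in clusters 1 and 3, against 3 in cluster 2.

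**Figure D2:**
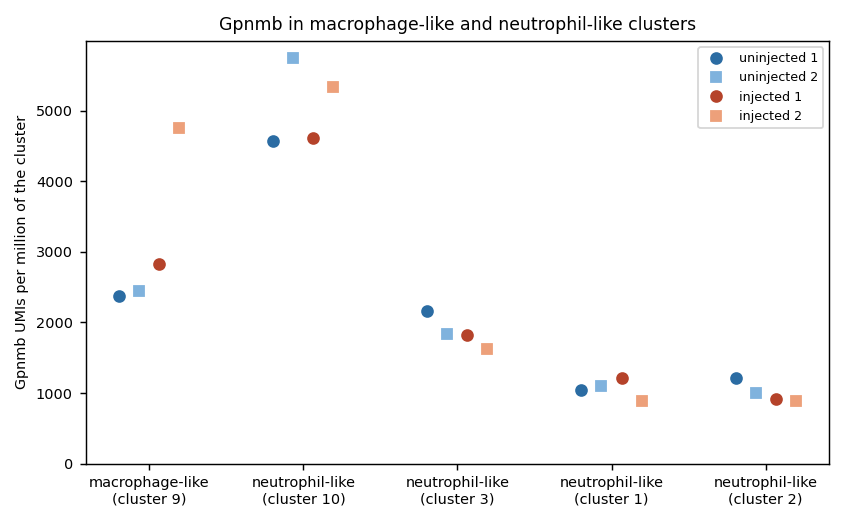
Level of Gpnmb in UPM (vertical axis, from 0) in the macrophage-like cluster and the 4 neutrophil-like clusters (horizontal axis), with 1 point per library. Cluster 10 lies between 4567 and 5748 and the other neutrophil-like clusters between 883 and 2164.

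Both Mrc1 and Cd163 were highest in macrophage-like cells in most libraries. Mrc1, the mannose receptor, gave 355 and 132 UPM in macrophage-like cells of uninjected 1 and 2, and 137 and 273 in those of injected 1 and 2. The 2 groups overlapped, and neutrophil-like cells followed with 11.6 to 26.3 and dendritic-like cells with 7.196 to 19.4, ranges that overlapped each other. Cd163 gave 263, 13.2, 36.8 and 85.4 UPM in macrophage-like cells of uninjected 1, uninjected 2, injected 1 and injected 2. Dendritic-like cells held 12.0 to 18.7, a range that included the macrophage-like value of uninjected 2. Macrophage-like cells held 58.6% of all Mrc1 UMIs and 58.3% of all Cd163 UMIs, and dendritic-like cells 39.2% of the Cd163 UMIs. By library the macrophage-like share of Mrc1 was 20.4%, 50.9%, 61.9% and 76.8% in uninjected 1, uninjected 2, injected 1 and injected 2, and in uninjected 1 neutrophil-like cells held more, 35.8%. That of Cd163 was 79.7%, 18.7%, 55.8% and 76.8%, and in uninjected 2 dendritic-like cells held 77.0%.

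Clec10a, the galactose-binding lectin, was mainly a dendritic-like RNA, with 84.5% of its UMIs there and 9.77% in macrophage-like cells. Dendritic-like cells held 54.0 and 109 UPM without injection and 228 and 299.7 with it. Their cluster 14, led by Cd74 and MHC class II genes and by Cd207 of Langerhans cells, held 91.6 and 303 without injection and 551 and 562 with it. Clusters 15 and 19 held 0 to 118 and 29.8 to 108. Cluster 15 had no dendritic marker among its leading 10 genes.

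By share of UMIs, the bridge and its receptors lay largely outside macrophage-like cells. Gas6 gave 78.0 and 54.4 UPM in fibroblast-like cells of the uninjected libraries and 166 and 146 in those of the injected ones, so the groups did not overlap. It gave 101 to 171 in dendritic-like cells, 67.4 to 302 in mast-like cells, 45.1 to 72.1 in macrophage-like cells and 15.6 to 42.8 in keratinocyte-like cells. By share, fibroblast-like cells held 42.2% of Gas6 UMIs, keratinocyte-like cells 39.4% and macrophage-like cells 2.43%. Axl, a receptor of Gas6, gave 186 to 213 UPM in fibroblast-like, 126 to 229 in mural-like and 137 to 226 in skeletal muscle-like cells, which overlapped, and 15.2 to 36.0 in keratinocyte-like cells. Macrophage-like cells held 20 Axl UMIs in all (1, 7, 9 and 3 in the 4 libraries), of which free RNA could account for up to 33.9%. Mertk, the other receptor, gave 21.8 to 30.9 UPM in macrophage-like cells, a range within the 22.1 to 67.4 of endothelial-like cells apart from its lowest library, and 7.28 to 9.25 in keratinocyte-like cells. Keratinocyte-like cells held 61.8% of the Mertk UMIs. Among the 10 classes, 6 had at least 50 cells in each library and were tested, and the mast-like, mural-like, endothelial-like and skeletal muscle-like values rest on as few as 34, 8, 37 and 7 cells in a library.

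The level in macrophage-like cells was then tested against each other tested class with edgeR in 1 fit over 13086 genes, with the library as a block, other genes of the same cells having set the classes. Against T and NK-like cells, 9 of 9 genes were higher, where 28.1% of all genes were higher and 27.7% lower. Against fibroblast-like cells 7 were higher (26.9% of all genes) and 2 lower (32.8%), the lower ones being Axl by a log2 of −5.88 (SE 0.36) and Gas6 by −0.79 (SE 0.23, adjusted p = 0.00503). Against keratinocyte-like cells 8 were higher (25.7%) and Axl was lower at −2.71 (36.7%). Against dendritic-like cells 6 were higher (24%) and 2 lower (26.7%), which were Clec10a at −2.08 (SE 0.42, adjusted p = 0.000204) and Gas6 at −1.15. Axl did not pass against dendritic-like cells, at −0.91 (adjusted p = 0.102), though it did unscaled (−1.29, adjusted p = 0.0293). Spp1 gave log2 differences of 6.71 to 10.77 over the 5 classes. Mertk was higher in macrophage-like cells than in each of the 5, by a log2 of 1.52 to 2.44. Trem2 stood 3.48 above neutrophil-like cells, and against the other 4 classes, with 1 to 19 Trem2 UMIs each, only the call is given.

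Against neutrophil-like cells 7 genes were higher (22.9% of all genes) and 2 lower (32.4%). The 2 lower genes were Gpnmb at −0.66 (adjusted p = 0.0473) and Axl at −1.20 (adjusted p = 0.0434), and both turned over without TMM scaling, at 0.83 (adjusted p = 0.00871) and 0.17. TMM is edgeR's scaling of library sizes, and without it the median of all genes against neutrophil-like cells moved from −0.21 to 1.18. Both calls were lost when uninjected 1 was left out (−0.49 and −0.96), and likewise without injected 1, where Gpnmb stood at −0.66 and Axl at −1.01. Gpnmb also lost its call without uninjected 2, at −0.48, and Axl without injected 2, at −0.94. Both were lost with no filter on low counts (−0.44 and −1.02) and when cells were picked by their markers (0.34 and −0.25). Whether Gpnmb is higher in macrophage-like or neutrophil-like cells thus depended on the scale and on how the cells were picked. Against the other classes the median moved from 0.017 to −0.70 (T and NK-like), −0.059 to −0.38 (dendritic-like), −0.12 to −0.46 (fibroblast-like) and −0.26 to −0.49 (keratinocyte-like). Unscaled, the all-gene shares higher and lower were 16.2% and 45.9% against T and NK-like, 17% and 35.6% against dendritic-like, 19.1% and 42.1% against fibroblast-like and 56.5% and 11.1% against neutrophil-like cells. The Gas6 difference from fibroblast-like cells was lost without injected 1 (−0.53, adjusted p = 0.131), and the Axl difference from T and NK-like cells, 2.00 with adjusted p = 0.0252, without uninjected 2 (1.38, adjusted p = 0.142), unscaled (1.23, adjusted p = 0.195) and with cells picked by their markers (0.93, adjusted p = 0.0782), which leaves 8 of 9 higher.

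Injection was then compared within each class, where CPM are the same levels on TMM-scaled library sizes and log2 changes are injected over uninjected. In macrophage-like cells edgeR called 1 of 8667 genes (0.0115%), Clmn, at a log2 change of −6.00. It called 0 of the 8 genes of the set that passed the filter on low counts, with Axl left out by it, and DESeq2 also called 0. One of the 8, Clec10a, had an unadjusted p under 0.05, as had 5.07% of all genes. In 4 of the 8 (38% of all genes) the groups did not overlap, with 2 higher and 2 lower with injection, where the same held for 20.3% and 17.7% of all genes.

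Clec10a had 4.92 and 9.92 CPM in uninjected 1 and 2 and 50.6 and 74.5 CPM in injected 1 and 2. Both injected libraries were above both uninjected ones, and the log2 change was 2.77 (SE 0.47, edgeR adjusted p = 0.210), rank 4 of 8667 by p. With no filter on low counts it passed, at 2.82 (adjusted p = 0.000111), and without uninjected 1 it did not, at 2.65. It also passed edgeR's test with the replicate number as a block (adjusted p = 5.6e-05). The labels do not say that these numbers pair the libraries. The 13 dendritic markers, of which 8, 10, 11 and 11 were detected in the 4 libraries, summed to 798 and 613 UPM in these cells without injection and 1144 and 559 with it, so that they overlapped between the groups. The UMIs came from few cells, 1 of 59 and 12 of 409 without injection and 25 of 680 and 19 of 379 with it. In injected 1 and 2 the 5 cells with the most Clec10a held 62.9% and 80.9% of its UMIs. The marker sum over the whole class cannot show whether so few cells were dendritic. Their part in the Clec10a difference was not tested.

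Gpnmb had 2261 and 2266 CPM without injection and 3195 and 4916 CPM with it. Both injected libraries lay above, by a log2 of 0.84 (SE 0.41, adjusted p = 0.933). Trem2 had 177 and 194 CPM without and 103 and 137 CPM with injection, both injected libraries below, by −0.63 (SE 0.36, adjusted p = 0.933). Spp1 had 15278 and 22855 CPM without and 8192 and 13168 CPM with injection, also both below, by −0.84 (SE 0.47, adjusted p = 0.933). None of these 3 differences passed, and those of Trem2 and Spp1 read −0.042 and −0.30 when macrophages were instead picked cell by cell by their markers. Spp1 read −0.49 without uninjected 2 and −0.49 without injected 1, and Trem2 −0.40 without injected 1. Gpnmb read 0.49 without injected 2.

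Finer clustering split the class into 1311 cells and 216 cells, of which 176 came from injected 1. The 216 cells held 6.53 UPM of Trem2 against 158 in the 1311, 538 against 3748 for Gpnmb, 2621 against 15479 for Spp1 and 43.9 against 42.9 for Clec10a. Without the 216 cells the changes were −0.48 for Trem2, −0.75 for Spp1, 0.97 for Gpnmb and 3.12 for Clec10a.

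The other receptors and the bridge gave no split between the groups. Mrc1 had 339 and 122 CPM without and 155 and 282 CPM with injection, a log2 change of −0.0091 (SE 0.50) that read 0.84 and −0.61 when uninjected 1 or 2 was left out, and 0.37 and −0.53 when injected 1 or 2 was. Cd163 had 251 and 12.3 CPM without and 41.5 and 88.3 CPM with injection, so that both injected libraries lay between the uninjected ones. Its change of −0.72 (SE 0.95, adjusted p = 0.942) depended on the library left out, reading 2.40 and −1.92 when uninjected 1 or 2 was left out, and −0.33 and −1.45 when injected 1 or 2 was. Mertk had 29.5 and 23.6 CPM without and 24.6 and 24.4 CPM with injection (−0.036, SE 0.41), reading 0.059 without uninjected 1. Gas6 had 68.8 and 42.0 CPM without and 50.9 and 60.3 CPM with injection (0.13, SE 0.39), reading −0.28 without uninjected 2 and −0.022 without injected 2. None of these 4 passed.

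**Figure D3:**
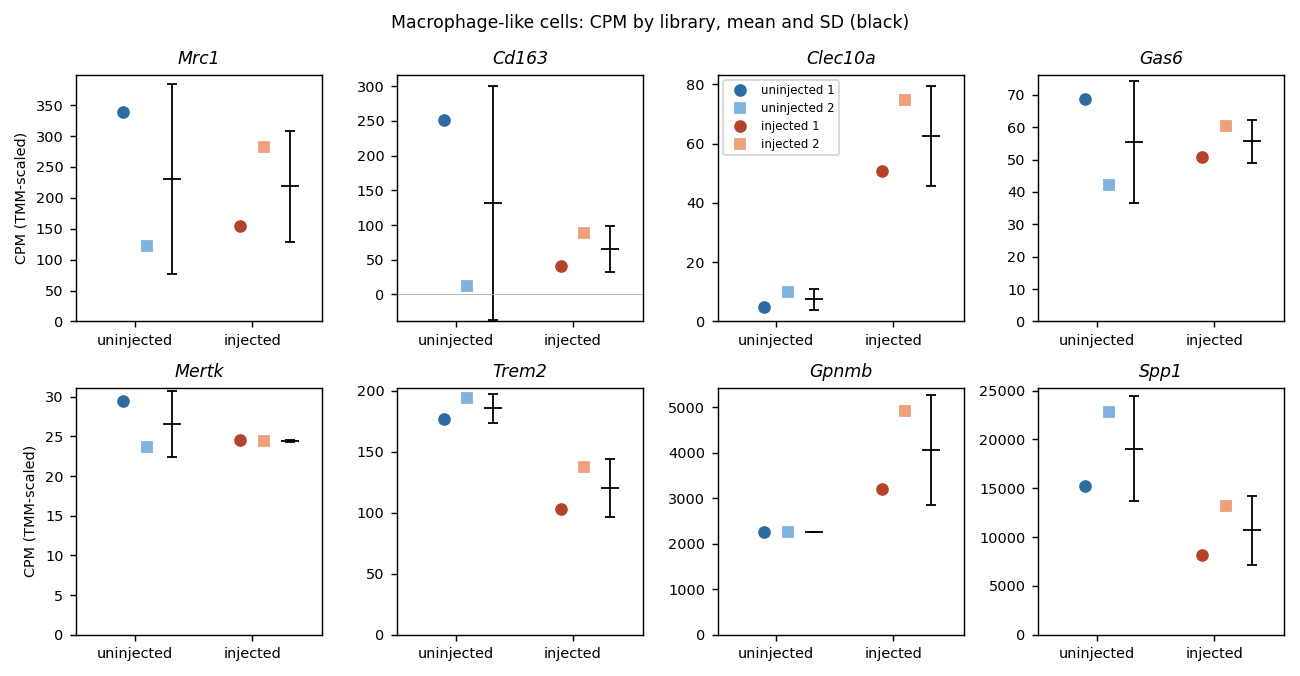
CPM (vertical axis, TMM-scaled) in macrophage-like cells of the 4 libraries (points) with the mean and SD of each group (black). The groups are apart for Clec10a, Gpnmb, Trem2 and Spp1, and the 2 uninjected Cd163 values, 251 and 12.3 CPM, enclose the injected ones; the Cd163 axis runs below 0 to hold the SD.

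In fibroblast-like cells edgeR called 4 of 13328 genes (0.03%) and 0 of the 7 genes of the set that were tested, while 2 had an unadjusted p under 0.05 (10.1% of all genes) and DESeq2 called 1. The groups did not overlap in 4 of the 7, with 3 higher (Gas6, Gpnmb and Clec10a) and 1 lower (Spp1), where 21% and 20.1% of all genes did so. Clec10a had 10 and 6 UMIs in this class in uninjected 1 and 2 and 72 and 22 in injected 1 and 2. In injected 1 the 5 cells richest in it held 80.6% of them, and up to 13.3% of the Clec10a UMIs of the class could be free RNA. Gas6, the bridging ligand, had 84.3 and 50.03 CPM without and 170 and 144 CPM with injection. Both injected libraries were above both uninjected ones, by a log2 of 1.23 (SE 0.30, edgeR adjusted p = 0.357). DESeq2 called it at 1.22 (adjusted p = 0.0340), and edgeR called it without uninjected 1 (1.63, adjusted p = 0.0374). Spp1 had 30.1 and 48.1 CPM without and 17.4 and 23.9 CPM with injection (−0.93, SE 0.30, adjusted p = 0.440), and up to 37.3% of its UMIs in this class could be free RNA. Axl, the receptor most abundant in this class, had 230 and 182 CPM without and 194 and 184 CPM with injection (−0.13, SE 0.24), reading 0.036 without uninjected 1.

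In dendritic-like cells 0 of 10273 genes passed (0%), 0 of the 8 tested genes of the set passed with edgeR or DESeq2, and 2 had an unadjusted p under 0.05 (5.13% of all genes). The groups did not overlap in 5 of the 8, each higher with injection, where 19.7% of all genes did so. Clec10a had 60.6 and 107 CPM without and 211 and 301 CPM with injection (1.58, SE 0.36, adjusted p = 0.719), and it passed without uninjected 2 (2.08, adjusted p = 0.0448). Gpnmb had 22.4 and 30.6 CPM without and 66.6 and 84.2 CPM with injection (1.46, SE 0.29, adjusted p = 0.608). With no filter on low counts, both passed (1.59, adjusted p = 0.000482, and 1.46, adjusted p = 0.00198). The 5 cells richest in Gpnmb held 50% and 25.7% of its UMIs in uninjected 1 and 2. They held 56.1% and 51.9% in injected 1 and 2. Mrc1 differed by 0.92, Gas6 by 0.46 and Cd163 by 0.22. Without cluster 15 the Clec10a change was 1.43 (adjusted p = 0.821) and the Gpnmb change 1.58 (adjusted p = 0.593).

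In neutrophil-like cells 0 of 8354 genes (0%) and 0 of the 7 tested genes of the set passed with edgeR, 0 of the 7 had an unadjusted p under 0.05 (9.1% of all genes), and DESeq2 called 0 of them. Gpnmb had 1165 and 1667 CPM without and 1833 and 2150 CPM with injection (0.49, SE 0.41, adjusted p = 0.697). The groups did not overlap in 2 of the 7 genes (41.7% of all genes), Gpnmb above and Mertk below, and without uninjected 1 the Gpnmb change was 0.26. Spp1 turned from −0.53 to 1.41 without uninjected 2 (adjusted p = 0.00828) and to −1.33 without uninjected 1 (adjusted p = 0.0195). In keratinocyte-like cells 0 of 14631 genes (0%) and 0 of 7 passed with edgeR, with 1 at an unadjusted p under 0.05 (4.47% of all genes) and 0 by DESeq2. That 1 was Clec10a, with 32 UMIs there that could all be free RNA. The groups did not overlap in 5 of the 7 (36.3% of all genes), with Axl, Clec10a and Gas6 higher (18.7% of all genes) and Mertk and Mrc1 lower (17.6%). Gas6 there had 17.7 and 33.4 CPM without and 38.7 and 41.1 CPM with injection (0.64, SE 0.31, adjusted p = 0.831), and passed without uninjected 2 (1.18, adjusted p = 0.0397). In T and NK-like cells 0 of 8384 genes (0%) and 0 of the 2 tested genes, Gpnmb and Spp1, passed with edgeR or DESeq2, and 1 of them, Spp1, had an unadjusted p under 0.05 (8.34% of all genes) and groups that did not overlap (44.8%). Spp1 had 5.41 and 28.1 CPM without and 46.5 and 55.4 CPM with injection (1.27, SE 0.50, adjusted p = 0.593). The change read 3.22 without uninjected 2, and up to 42.5% of the Spp1 UMIs there could be free RNA. The 5 cells richest in Spp1 held 78.8% and 82% of its UMIs in injected 1 and 2, against 21.3% in uninjected 2. Uninjected 1 held 2 Spp1 UMIs in this class.

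**Figure D4:**
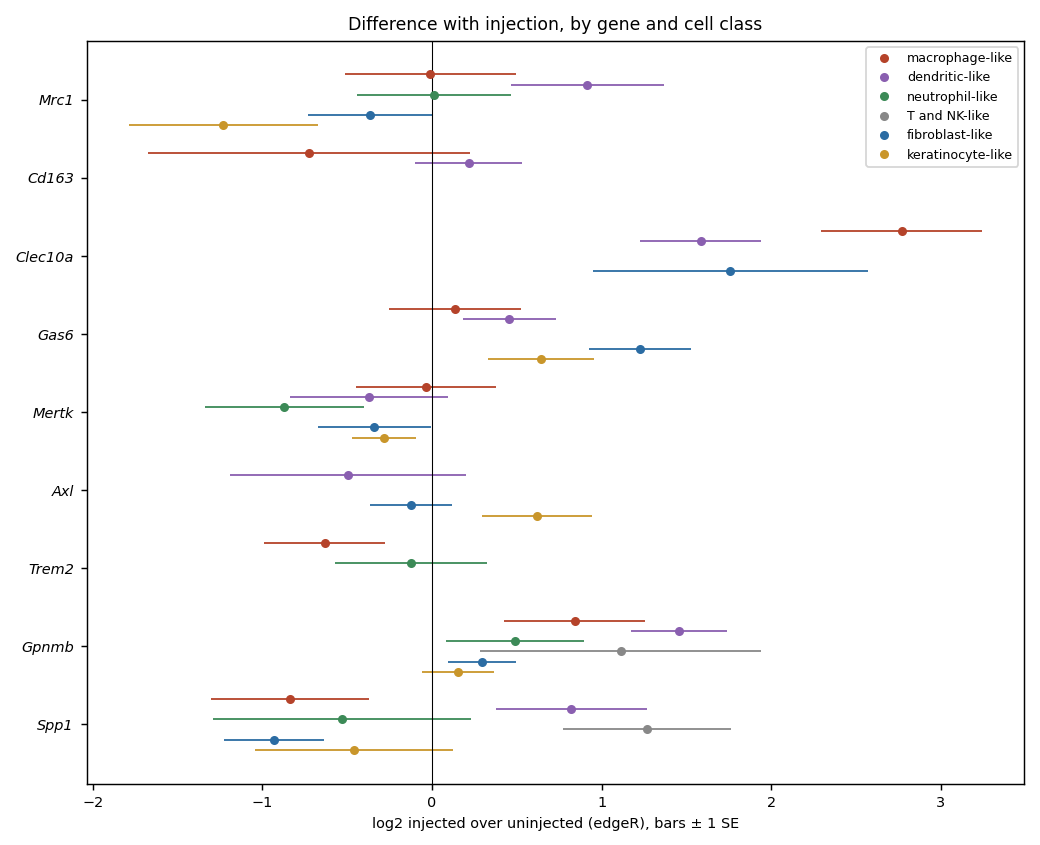
Log2 change, injected over uninjected (horizontal axis, points ± 1 SE), of each gene (vertical axis) in the tested classes where it had at least 50 UMIs. Clec10a lies to the right in macrophage-like, dendritic-like and fibroblast-like cells, the last resting on 110 UMIs. Spp1 lies left of 0 in macrophage-like, neutrophil-like, fibroblast-like and keratinocyte-like cells and right of 0 in the other 2 classes. Free RNA could account for up to 98.2%, 66.1% and 37.3% of the Spp1 UMIs in keratinocyte-like, neutrophil-like and fibroblast-like cells. The same limit was 42.5% in T and NK-like and 12.8% in dendritic-like cells. Under some alternatives Spp1 turned sign in every tested class but macrophage-like and fibroblast-like cells.

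Whether the response to injection differed between macrophage-like cells and each other class was tested as an interaction for the 9 genes against 5 classes. None of the 45 passed with edgeR, and 6 had an unadjusted p under 0.05. These were 3 of 9 against T and NK-like cells (7.15% of all genes), 2 against dendritic-like (5.52%), 1 against keratinocyte-like (6.81%) and 0 against fibroblast-like (7.7%) and neutrophil-like cells (9.48%). For Spp1 the macrophage-like change minus that of T and NK-like cells was −2.37 (SE 0.66, adjusted p = 0.296). Minus that of dendritic-like cells it was −1.48 (SE 0.56, adjusted p = 0.841). Most T and NK-like Spp1 UMIs of each injected library lay in 5 cells, as given above. The other 4 of the 6 were Axl and Clec10a against T and NK-like, Trem2 against dendritic-like and Mrc1 against keratinocyte-like cells. T and NK-like cells held 6 Axl and 10 Clec10a UMIs over all libraries, with 8 of the latter in 1 cell of uninjected 1. Dendritic-like cells held 12 Trem2 UMIs and keratinocyte-like cells 179 Mrc1 UMIs. The low counts limit what the Axl, Clec10a and Trem2 differences show. Over all 13086 genes 1 or 2 passed against each class (0.00764% or 0.0153%).

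Within macrophage-like cells the 9 genes did not all go together. Cells with 2 or more Cd163 UMIs numbered 2, 5, 15 and 10 in uninjected 1, uninjected 2, injected 1 and injected 2. Over all libraries these 32 cells held 1439 UPM of Mrc1 against 137 in the 1486 cells with none. Clec10a was at 966 against 13.7, with 0 in uninjected 1, Gas6 at 251 against 43.1 and the complement gene C1qa at 3479 against 107. Spp1 stood the other way, at 581 against 14139, and Gpnmb at 1196 against 3366. In each of the 4 libraries Mrc1, Gas6 and C1qa were higher and Spp1 and Gpnmb lower in the Cd163-bearing cells. These cells were deeper, with a median of 7103 against 4604 UMIs, and held more of the dendritic markers Cd74 (1621 against 256 UPM) and RT1-Da (1885 against 208); the part of depth or of these genes in the difference was not tested.

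Trem2 went with Spp1 instead. The 129 macrophage-like cells with 2 or more Trem2 UMIs (9, 53, 34 and 33 in the 4 libraries) held 35530 UPM of Spp1 against 9176 in the 1288 cells with none. Spp1 was higher in the Trem2-bearing cells of each library, at 27016 against 11385, 44052 against 17822, 21665 against 5700 and 37724 against 7403 in uninjected 1, uninjected 2, injected 1 and injected 2. Gpnmb was at 3155 against 3382. Their median depth was 7556 against 4352 UMIs, so the comparison was repeated with each cell thinned to 1000 UMIs. Of 97 cells with a Trem2 UMI, 80.4% had an Spp1 UMI, against 59% of the 1364 without, while of 23 cells with a Cd163 UMI 13% had one, against 61.2% of 1438. Cells chosen by a gene are described here, with no test.

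The spread over cells also differed by gene. The 5 cells richest in Cd163 held 100% of its macrophage-like UMIs in both uninjected libraries (from 3 and 5 cells with a UMI) and 62.6% and 82.8% in injected 1 and 2. For Gpnmb the same share was 31.3% in uninjected 1, where there were 59 cells, and 6.94% to 10.5% elsewhere. For Spp1 it was 41.4% in uninjected 1 and 16.7% to 20.6% elsewhere. The Cd163 and Clec10a values of a library therefore rest on a handful of cells, and those of Gpnmb and Spp1 on 300 or more cells with a UMI in 3 of the 4 libraries.

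**Figure D5:**
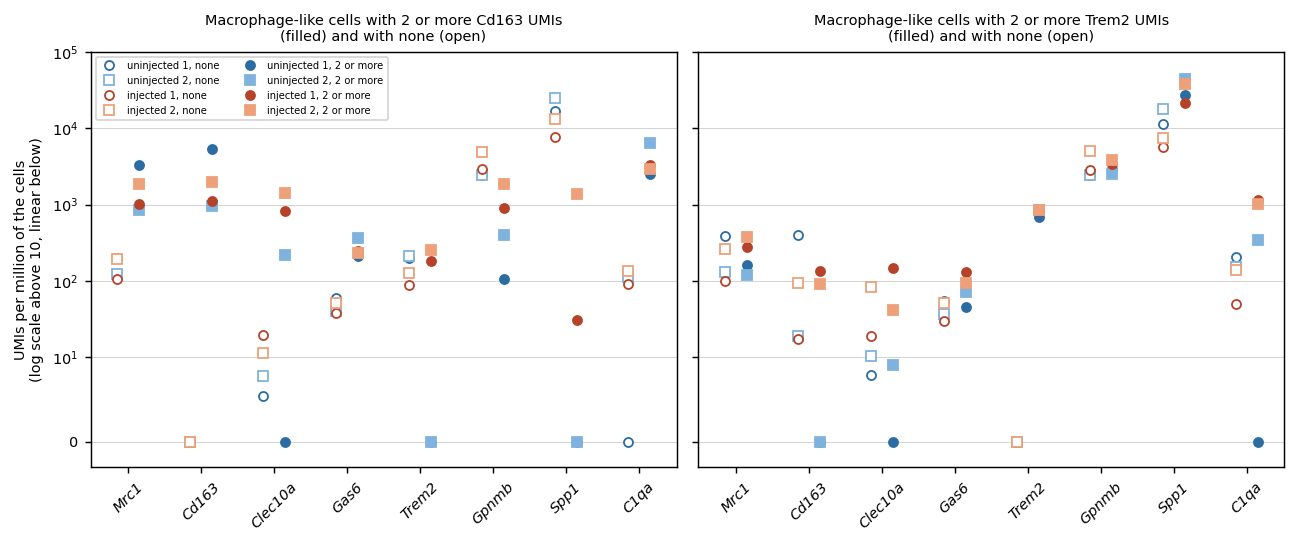
Level in UPM (vertical axis, logarithmic above 10 and linear below) of 8 genes in macrophage-like cells of each library, for cells with 2 or more UMIs of Cd163 (left) or Trem2 (right) as filled points and with none as open points. Spp1 lies lower in the Cd163-bearing cells and higher in the Trem2-bearing cells of every library.

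Other genes of efferocytosis and of macrophage repair in macrophage-like cells were read from 7 lists, and none of their genes passed edgeR's test; the genes named are among the 3 most abundant tested genes of each list and the 2 of smallest p. Of the other efferocytosis receptors 8 of 16 listed were tested, 5 higher and 3 lower, with a median log2 change of 0.32 (all genes, 0.021). The scavenger receptor Msr1 had 521 ± 41.9 CPM without and 735 ± 244 CPM with injection (SD, n = 2), Olr1 350 ± 112 and 444 ± 89.6, and Lrp1 244 ± 16.1 and 185 ± 14.9. The integrin chain Itgb5 differed by −1.62 and the lipoprotein receptor Scarb1 by −0.73. Of 9 tested bridging and opsonin genes (10 listed) 7 were higher and 2 lower, median 0.26, among them the galectin Lgals3 at 0.060, the annexins Anxa1 at −0.20 and Anxa5 at 0.0081, Thbs1 at 0.94 and C1qa at 0.60.

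Of the genes that carry the Trem2 signal and the engulfment machinery, 9 of 12 listed were tested, 3 higher and 6 lower, with a median of −0.29. The adaptor Tyrobp had 1686 ± 828 CPM without and 1030 ± 18.4 CPM with injection (−0.70, adjusted p = 0.933). Plcg2 differed by −0.60, Rac1 by 0.20, the engulfment protein Elmo1 by −1.03 and the adaptor Hcst by −1.17. Of the 7 shedding and checkpoint genes 6 were higher and 1 lower, median 0.54, including the don't-eat-me signal Cd47 at 0.85, its receptor Sirpa at 0.54, the syndecan Sdc4 at 0.54 and the protease Adam17 at 0.11.

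All 24 genes of lysosome and lipid handling were tested, 15 higher and 9 lower, median 0.34. The protease Ctsl had 5035 ± 1496 CPM without and 11042 ± 839 CPM with injection (1.13, adjusted p = 0.933). Apoe differed by 0.15, Ctsb by 0.62 and the lipase Lpl by −1.40. Of 7 tested osteopontin receptors (8 listed) 6 were higher and 1 lower, median 0.27, with Cd44 at 0.27, Itgb1 at 0.60, Itgav at 0.42 and Itgb5 as above. Of 15 tested other repair or resident genes (24 listed) 12 were higher and 3 lower, median 0.32, with Hmox1 at −0.26, Vegfa at 0.28, the chemokine Ccl24 at −1.88 and Il4r at 0.82.

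Finally, the genes whose level across the 24 sums of class and library was most like each gene were read from 9692 genes, as Pearson correlations of log CPM that describe these sums, which share libraries and classes. Among the closest were Aldh3b1 (0.95) and Lsmem1 to Mrc1, and Psap (0.94), AABR07059308.1 and Ms4a7 to Cd163. Clec10a was most like Ly86 (0.93), Ifi30 and Tmem176a, and Gas6 most like B3galnt1 (0.94), Cdk14 and Zcchc24. Mertk was most like Trem2 (0.84), Rapgef2 and Hspa2, and Trem2 most like Slc37a2 (0.97), Smpdl3a and Adgre1. Gpnmb was most like Slc11a1 (0.97), C5ar1 and Hk3, genes of myeloid phagocytes, and Spp1 most like Folr2 (0.97), Tnfsf13 and Fcna. Among the 9 genes Spp1 and Trem2 stood closest (0.92), and Axl was negatively correlated with the other 8 except Gas6 (0.57).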

How the data were processed

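The 9 genes, the gene lists and the marker genes were chosen with earlier results of these data known. The authors deposited raw UMI count matrices of all droplets, made with Cell Ranger 7.2.0 per the file headers and 5.0.1 per the submitters' processing notes; the genome build is not given in the sources used here. Barcodes were kept as cells when they held over 1/10 of the UMIs at percentile 99 of the 3000 largest or, from 500 UMIs, when their profile differed from empty droplets (ranks 45000 to 90000, 1000 draws, FDR 0.01). Cells below 250 genes, cells above 20% in mitochondrial UMIs and those with the highest doublet scores (Scrublet method, 0.8% per 1000 cells) were left out, the last removing 328 to 929 cells per library. Median depth of kept cells was 2092.5 and 4931 UMIs in uninjected 1 and 2 and 3483 and 7916 in injected 1 and 2.

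Cells were clustered with scanpy 1.11.5 (2000 variable genes without the 9, 30 components, 15 neighbours, Leiden resolution 1). A cluster took the name of the class with at least 3 markers found in 20% of its cells at 2-fold. Counts were summed per class and library, where each library held at least 50 cells, and tested with edgeR 4.0.16's quasi-likelihood test on TMM-scaled sums after its filter on low counts, over all genes, with Benjamini-Hochberg adjustment and a threshold of 0.05. DESeq2 1.42.0 was an alternative. The interaction and level tests used 1 fit over the sums with library as a block. The limit for free RNA scales the empty-droplet profile to the UMIs of other classes' markers in each class. Shares of cells were taken after thinning to 1000 UMIs. Genes were given in full where a class held at least 50 UMIs of them over the 4 libraries; from each list the 3 tested genes of highest mean CPM and the 2 of smallest p were named, and for likeness the 3 of highest correlation, except that some of these genes are not reported here. Promoters came from RefSeq. The tests were checked on simulated counts. Alternatives left out each library in turn, changed the scaling, the filter, the test, the doublet, mitochondrial and cell-calling rules and the clusters, gated cells by markers, and added the replicate number as a block.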

Additional observations from a re-analysis of the deposited data

How the results depend on the processing

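Across the alternatives 433 of the changes with injection that were recomputed kept their direction and side of the threshold, 39 turned sign and 11 came to pass, and of the level differences 298 did so, 13 were lost, 1 was gained and 3 turned. No gene of the set passed in the main test for injection, so the 433 are changes that stayed short of the threshold. Finer clustering left the cell numbers of the classes alike, except 857 against 858 fibroblast-like cells in injected 1, so it could hardly move them. With DESeq2, genes called in T and NK-like, dendritic-like, fibroblast-like, keratinocyte-like, macrophage-like and neutrophil-like cells numbered 10, 23, 169, 34, 3 and 39, and with no filter on low counts 239, 274, 236, 0, 61 and 398. The marker gate gave 0 in macrophage-like cells. Leaving out 1 library gave 0 to 666, 0 to 216, 0 to 796, 0 to 457, 2 to 78 and 0 to 1338 in the same order, the highest each time without uninjected 2, where the lone uninjected library is assumed to vary as the injected ones do. Genes of the set called numbered 2 in dendritic-like cells with no filter, 1 in macrophage-like cells with no filter, 1 in fibroblast-like cells with no filter and with DESeq2, and 0 to 1 with a library left out in all classes but macrophage-like cells, where it was 0. Those lower than in fibroblast-like cells numbered 1 to 2 and than in neutrophil-like cells 0 to 1 with a library left out, and the latter 0 with no scaling, with no filter and by the gate.

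The libraries share replicate numbers, but the labels do not say that these pair them, and deviations of same-numbered libraries correlated at −0.000837 to −0.146 over the classes. With the replicate number as a block 32 genes were called in T and NK-like cells, 25 in macrophage-like cells and 0 in fibroblast-like cells, and of the set Clec10a in macrophage-like cells (2.97, adjusted p = 5.6e-05). The block also turned the changes of Mrc1 (0.069) and Cd163 (0.072) in macrophage-like cells and of Spp1 in neutrophil-like cells (0.017).

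These log2 changes, each short of the threshold in the main test, turned sign. In macrophage-like cells Mrc1 read 0.12 with no filter, 0.71 by the gate, 0.19 at up to 10% mitochondrial UMIs and 0.12 with doubtful clusters left out (an alternative chosen after seeing the data), Cd163 0.27 by the gate and 0.52 at 10%, and Mertk 0.028 with no filter, 0.41 by the gate, 0.075 with doublets kept and 0.11 with doubtful clusters left out. In neutrophil-like cells Mrc1 read −0.021 with no filter, −0.58 by the gate, −0.053 with doublets kept and −0.19 with a minimum of 1000 UMIs alone, where Trem2 read 0.028. With doublets kept Spp1 read −1.03 in T and NK-like and −0.58 in dendritic-like cells and Cd163 −0.013 in dendritic-like cells, where it read −0.13 at 10%. Against neutrophil-like cells Axl stood at 0.17 and Gpnmb at 0.83 unscaled, and Gpnmb at 0.34 by the gate. With a library left out, changes ran in macrophage-like cells from −0.61 to 0.84 (Mrc1), −1.92 to 2.40 (Cd163), −0.28 to 0.41 (Gas6) and −0.24 to 0.059 (Mertk), in neutrophil-like cells from −0.38 to 0.52 (Mrc1), −0.57 to 0.18 (Trem2) and −1.33 to 1.41 (Spp1), in dendritic-like cells from −1.42 to 0.44 (Axl) and −0.034 to 1.36 (Spp1), in fibroblast-like cells from −0.28 to 0.036 (Axl), in keratinocyte-like cells from −0.063 to 0.42 (Gpnmb) and −1.06 to 0.62 (Spp1), and in T and NK-like cells from −0.61 to 1.96 (Gpnmb). Apart from the tests that use fewer libraries or more genes, the cause was not tested. Mrc1 in keratinocyte-like cells could not be fitted under 1 alternative. With 59 macrophage-like cells and 1 Clec10a UMI in uninjected 1, depth limits what that library shows. Intervals, shares and limits for free RNA cover counting error only.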
